A study of Homo sapiens with 6 samples.

Results

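A list of 10 genes of squamous differentiation was followed across wild-type and KRT17 knockout libraries labelled as NCI-N87, an established human gastric carcinoma line. The genes were IVL, SPRR1A, SPRR1B, SPRR3, CNFN, EVPL, PPL, TGM1, A2ML1 and TP63. They were a list chosen by gene name, taken from 58735 gene IDs by their name in GENCODE release 29, and all 10 were found in the 6 libraries. The series measured total RNA by sequencing in 2 libraries of wild-type cells (WT), 2 of a KRT17 knockout group named KO1 and 2 of a KRT17 knockout group named KO2. No treatment or time is given for any group. The labels do not say how KRT17 was targeted, whether KO1 and KO2 are clones or guides, or whether the 2 libraries of a group came from separate cultures, so every p-value here rests on library-to-library spread that may be only technical.

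The cornified envelope is the protein shell that replaces the plasma membrane of cells at the surface of stratified squamous epithelium. Involucrin and the small proline-rich (SPRR) proteins are its soluble precursors, the plakins envoplakin and periplakin anchor it beneath the membrane, and transglutaminases join these proteins by cross-links. The transcription factor p63 maintains the basal layer from which squamous cells arise. Normal gastric glands are lined by a simple columnar epithelium without a cornified envelope, although carcinoma lines can express squamous genes.

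Values are FPKM (fragments per kilobase of exon, scaled by a fragment total for each library) as the authors deposited them, and levels are mean ± SD of the 2 libraries of a group. Read numbers recovered from the FPKM values totalled 17599759 to 22852340 per library. The fragment total used was 0.945 and 0.936 times the recovered reads in the WT libraries and 1.029 to 1.055 times in the knockout libraries. The deposited scaling thus differed from library size and set knockout values lower relative to WT. The median difference of all tested genes in the knockout average was 0.02 log2 as deposited and 0.14 with scaling by library size alone. Differences were fitted with limma on log2(FPKM + 1) over the 16046 genes that reached 1 FPKM in 2 libraries, and are given ± SE with p-values adjusted by the Benjamini-Hochberg method. A difference was called at an adjusted p below 0.05. This scale understates the change of low genes.

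The knockout libraries stood apart from WT over most genes: 40.1% of tested genes were called lower and 40.5% higher in the average of KO1 and KO2. KRT17, the targeted gene, read 739 and 753 FPKM in the WT libraries. Its KO1 libraries read 2.29 and 2.40 FPKM and its KO2 libraries 11.3 and 10.4. The 6 epithelial and line markers EPCAM, CDH1, KRT8, KRT18, KRT19 and ERBB2 summed to 4988 and 5154 FPKM in the WT libraries and to 321 to 390.6 in the knockout libraries. KRT19, a keratin of simple epithelia, had 161100 reads in WT, 10 in KO1 and 0 in KO2. The 7 fibroblast markers summed to 0.728 and 0.900 FPKM in WT and 43.8 to 56.5 in the knockout libraries. LUM, COL1A1 and DCN had knockout means of 29.6, 12.4 and 7.37 FPKM. The other markers were low: COL3A1 had 2 reads in WT and 184 in the knockout libraries, below 1 FPKM in each. COL1A2 had 0 and 10 reads, THY1 6 and 4, and PDGFRA 0 in every library. The part of these shifts in the results below was not tested, and the KRT17 label cannot be told apart from anything else that separates the WT from the knockout libraries. ERBB2, a receptor gene known to be amplified in NCI-N87, was at 1387 ± 46.4 FPKM in WT and at a mean of 5.82 in KO1 and 5.29 in KO2. Whether the WT and knockout libraries come from the same line was not tested, which bears on every value that sets WT against a knockout. In bulk RNA, fewer cells of a type and less RNA per cell cannot be told apart. Leukocyte markers (5 genes) summed to at most 1.76 FPKM and endothelial markers (4 genes) to at most 0.746 in any library.

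Of the 10 genes, 5 (IVL, A2ML1, SPRR1A, SPRR1B and SPRR3) had 0 reads in all 4 knockout libraries, and the other 5 were read in all 6 libraries. The test took in 7 genes. IVL, A2ML1 and SPRR1A did so through WT alone and had to differ, while EVPL, PPL, CNFN and TGM1 reached 1 FPKM in all 3 groups. Of these 4, EVPL, PPL and CNFN were called lower and TGM1 higher in the knockout average (40.1% and 40.5% of all tested genes). The same 7 genes gave 6 lower and 1 higher in KO1 (background 38.6% and 39.3% of tested genes) and 6 lower and 0 higher in KO2 (39.8% and 39.1%), where TGM1 was not called; both comparisons share the WT libraries. SPRR1B, SPRR3 and TP63 were below 1 FPKM in every library and were tested only in a fit without a filter (36164 genes, of which 24.3% were called lower and 21.5% higher in the knockout average).

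**Figure D1:**
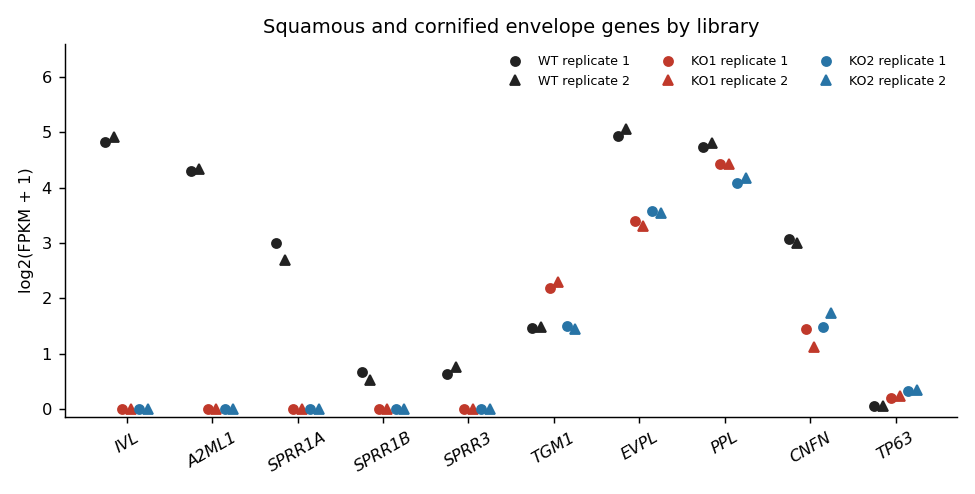
Level of each of the 10 genes as log2(FPKM + 1), with 1 point per library (circles replicate 1, triangles replicate 2; black WT, red KO1, blue KO2). IVL, A2ML1, SPRR1A, SPRR1B and SPRR3 lie at 0 in the 4 knockout libraries, and TGM1 is higher in KO1 than in WT and KO2.

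The precursor genes IVL, SPRR1A, SPRR3 and SPRR1B lie on chromosome 1 in the epidermal differentiation complex, a cluster of genes for late squamous differentiation. IVL, the gene of involucrin (ENSG00000163207, GRCh38 chromosome 1, 152908545 to 152911886, plus strand), was at 27.5 and 29.2 FPKM in WT replicates 1 and 2 (1279 and 1154 reads). It had 0 reads in each KO1 and KO2 library, which allows at most 0.0597 to 0.0750 FPKM at 3 reads per library. WT was thus at least 424-fold above that floor. The floor covers counting error only, since PCR copies of a molecule cannot be recognised in these data. IVL differed from WT by -4.87 ± 0.05 log2 in the knockout average (limma adjusted p = 2.10e-07), and by the same amount in KO1 and KO2 because both were at 0.

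SPRR1A (ENSG00000169474, chromosome 1, 152985231 to 152985500, plus strand), a small proline-rich cross-linked precursor, was at 7.03 and 5.44 FPKM in WT (41 and 27 reads). No read was counted in any knockout library, and WT was at least 11.7-fold above the floor (-2.85 ± 0.11 log2, limma adjusted p = 7.59e-06). The annotated model of SPRR1A spans only its 270 coding bases, so reads outside them would not enter this value.

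SPRR3 (ENSG00000163209, chromosome 1, 153001747 to 153003856), the SPRR gene typical of oesophageal epithelium, was at 0.546 and 0.680 FPKM in WT, from 17 and 18 reads. SPRR1B (ENSG00000169469, chromosome 1, 153031202 to 153032900) was at 0.598 and 0.439 FPKM in WT, from 8 and 5 reads. Both had 0 reads in the 4 knockout libraries. WT was at least 6.14-fold above the floor for SPRR3 and at least 2.23-fold for SPRR1B. In the fit without a filter the knockout average differed from WT by -0.69 ± 0.05 log2 for SPRR3 (limma adjusted p = 3.40e-04) and by -0.60 ± 0.05 for SPRR1B (adjusted p = 7.90e-04). That fit took in every gene with a read, so SPRR3 and SPRR1B entered it through WT alone and could only be lower. The WT values of SPRR3 and SPRR1B overlapped, so their order within WT was not resolved.

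SPRR1A and SPRR1B are near copies, which bears on how far their reads can be told apart. Their first 90 coding bases, shown with the bases that differ in capitals, were read from the GENCODE release 29 transcripts.
SPRR1A: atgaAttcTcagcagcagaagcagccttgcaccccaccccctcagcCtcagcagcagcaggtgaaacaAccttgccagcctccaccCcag
SPRR1B: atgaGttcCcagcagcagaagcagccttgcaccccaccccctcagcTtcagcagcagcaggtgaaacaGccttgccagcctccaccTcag
This stretch held 5 differences. Over the 270 aligned bases 260 were identical (96.3%), and the longest identical run was 74 bases. No stretch of 75 bases of SPRR1A or SPRR1B occurred in a transcript of another gene, but reads of up to 74 bases can match both. Neither the read length nor the handling of reads with several matches is given in the sources used here. How WT reads split between SPRR1A and SPRR1B is therefore uncertain. Among the other 8 genes, shared stretches of 75 bases were found in EVPL, where 0.680% of stretches also occurred in EVPLL.

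All 4 chromosome 1 precursors were read in WT and had 0 reads in the knockouts, and the 250 bases before their RefSeq starts are shown for this reason (GRCh38.p14, plus strand, 5′ to 3′). Capitals mark TGAGTCA or its reverse complement TGACTCA, the binding letters of the AP-1 transcription factors.
IVL (chr1:152908296-152908545): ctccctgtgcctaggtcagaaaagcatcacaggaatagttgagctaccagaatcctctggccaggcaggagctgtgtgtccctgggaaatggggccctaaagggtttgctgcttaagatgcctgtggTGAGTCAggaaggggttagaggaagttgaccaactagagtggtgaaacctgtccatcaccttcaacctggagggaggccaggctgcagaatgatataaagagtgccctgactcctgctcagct
SPRR1A (chr1:152983831-152984080): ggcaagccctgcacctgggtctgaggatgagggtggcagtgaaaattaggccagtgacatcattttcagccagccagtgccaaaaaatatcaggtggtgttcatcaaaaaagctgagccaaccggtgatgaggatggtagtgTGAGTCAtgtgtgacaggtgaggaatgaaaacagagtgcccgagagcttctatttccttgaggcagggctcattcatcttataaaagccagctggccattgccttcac
SPRR3 (chr1:153001499-153001748): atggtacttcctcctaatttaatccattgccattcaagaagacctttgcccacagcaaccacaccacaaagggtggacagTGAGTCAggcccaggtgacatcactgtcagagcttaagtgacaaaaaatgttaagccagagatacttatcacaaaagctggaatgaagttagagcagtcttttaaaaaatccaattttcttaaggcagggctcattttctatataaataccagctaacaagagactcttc
SPRR1B (chr1:153030953-153031202): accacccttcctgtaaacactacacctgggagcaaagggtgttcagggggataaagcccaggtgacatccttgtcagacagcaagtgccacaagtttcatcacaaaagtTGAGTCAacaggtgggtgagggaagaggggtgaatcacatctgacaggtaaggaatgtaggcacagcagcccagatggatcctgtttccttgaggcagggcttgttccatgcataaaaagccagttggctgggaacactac
Each of the 4 windows held 1 match. Its first base lay 123 bases before the start in IVL, 108 in SPRR1A, 170 in SPRR3 and 141 in SPRR1B. Of 35116 RefSeq windows of this length, 4.20% held the motif on either strand. RefSeq windows were found for 7 of the 10 genes, and none of the 4 windows of A2ML1 (2 starts), CNFN and TP63 held it. TATAAA or its reverse complement TTTATA was present upstream of IVL, SPRR1A, SPRR3 and 1 A2ML1 start, against 10.7% of all windows. AACCGGTT, the letters of the Grainyhead factors, was in none of the 8 windows and in 0.117% of all. Such matches describe the letters and do not show that a factor was bound. SPRR1A, SPRR1B and SPRR3 are related genes, so the 4 windows with the AP-1 letters are not independent of each other. Their count was not tested against the share of all windows.

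Around these 4 genes the epidermal differentiation complex was largely unread. From S100A10 to S100A1 (chromosome 1, 151982915 to 153632039) there were 64 protein-coding genes, of which 29 had 0 reads in all 6 libraries. Among the 47 genes outside the S100 family, 19 had reads in WT and 8 in the knockout libraries, with 2923 reads in the 2 WT libraries and 38 in the 4 knockout libraries. IVL alone held 2433 of the 2923. IVL and SPRR1A were the only 2 of the 47 to enter the test. The 17 S100 genes, which code for calcium-binding proteins and flank the cluster, were more often read: 4 of 11 tested were lower and 7 higher, against 40.1% and 40.5% of all tested genes. The 4 with the highest mean over the 6 libraries were S100A6, S100A11, S100A4 and S100A16. S100A6 went from 547 to 786 ± 158 FPKM in the knockout libraries (n = 4), S100A11 from 774 to 600.1 ± 58.7, S100A4 from 108 to 654 ± 102 and S100A16 from 246 to 257 ± 21.7. That mean pools 2 WT and 4 knockout libraries and passes over genes high in WT alone. S100A14 and S100A2, named after their values were seen, went from 375 ± 9.21 to 9.56 ± 2.19 FPKM (-5.18 log2) and from 62.6 ± 1.68 to 6.43 ± 0.921 (-3.11 log2).

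**Figure D2:**
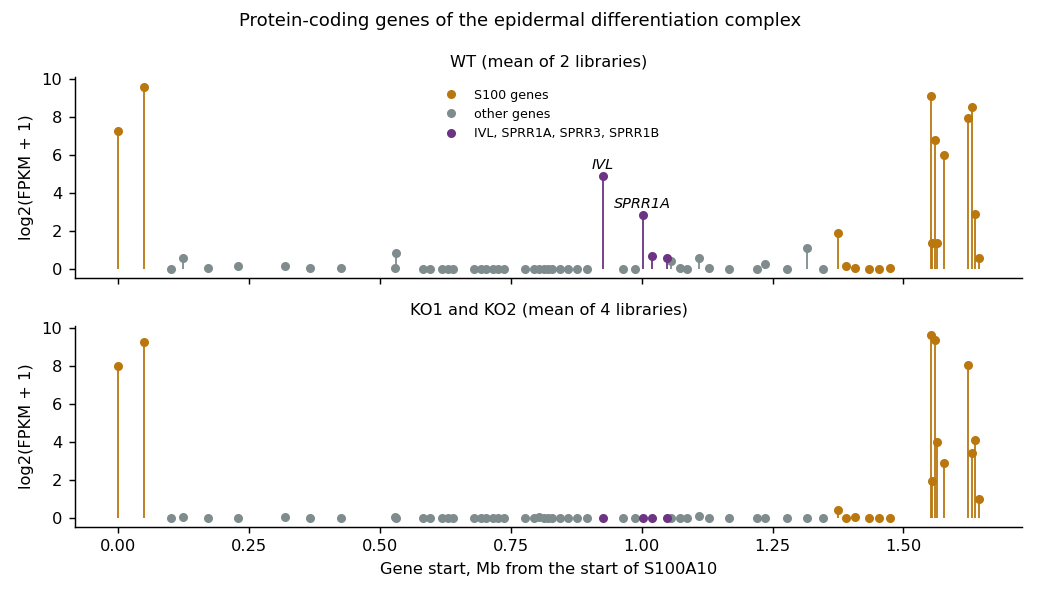
Mean level of the 64 protein-coding genes of the epidermal differentiation complex as log2(FPKM + 1), against the distance of each gene start from the start of S100A10 in Mb; top WT (2 libraries), bottom KO1 and KO2 (4 libraries). IVL and SPRR1A stand above their neighbours in WT and lie at 0 in the knockout libraries, while S100 genes at the ends include both high and much lower values in the knockouts.

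A2ML1 (ENSG00000166535, chromosome 12, 8822472 to 8887001, plus strand) encodes a secreted protease inhibitor of the alpha-2-macroglobulin family made in upper squamous layers. It was at 18.9 and 19.2 FPKM in WT (2973 and 2569 reads) and at 0 reads in all 4 knockout libraries. It had the most WT reads of the 5 genes at 0 in the knockouts, and WT was at least 965-fold above the floor (-4.32 ± 0.05 log2, limma adjusted p = 2.44e-07). A2ML1-AS1 and AC006581.2 overlap A2ML1 on the opposite strand. Without a stated strand setting, their reads cannot be told apart from those of A2ML1. Of 4 other genes of the family 2 were tested, 1 lower and 1 higher (40.1% and 40.5% of all tested genes). CD109 fell slightly, from 12.6 ± 0.322 FPKM to 11.5 ± 0.498 in KO1 and 9.69 ± 0.102 in KO2, a call lost with the 4 knockout libraries as a single group (limma adjusted p = 0.0645). Its KO1 call (adjusted p = 0.0467) was lost under quantile normalization, scaling by library size alone and voom. CPAMD8 rose from 0.0198 ± 0.00225 to 0.711 ± 0.000999 and 1.09 ± 0.0308 FPKM. It entered the test through the KO2 libraries alone and had to be higher there. A2M and PZP did not reach 1 FPKM.

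EVPL and PPL encode envoplakin and periplakin, plakins that pair with each other to form the scaffold on which the envelope is built. In the WT libraries EVPL (ENSG00000167880, chromosome 17, 76004502 to 76027452, minus strand) read 29.8 and 32.5 FPKM. The KO1 libraries read 9.49 and 8.90, the KO2 libraries 11.0 and 10.7. Every knockout library was below both WT libraries, and the 2 KO2 libraries were above the 2 KO1 libraries. The fall was 3.11-fold for the knockout mean (-1.55 ± 0.05 log2, limma adjusted p = 4.25e-06), from 9315 reads in WT. EVPL overlaps CDK3 on the opposite strand, so reads in that overlap may be shared.

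PPL (ENSG00000118898, chromosome 16, 4882507 to 4960741, minus strand) read 25.5 and 26.9 FPKM in the WT libraries. The KO1 libraries read 20.7 and 20.5, the KO2 libraries 16.0 and 17.0. The 3 groups did not overlap and ran from WT down through KO1 to KO2. The fall was small, 1.41-fold for the knockout mean (-0.49 ± 0.04 log2, limma adjusted p = 1.15e-04). It was -0.33 ± 0.04 log2 in KO1 (limma adjusted p = 0.00107) and -0.64 ± 0.04 in KO2 (adjusted p = 7.85e-05). The size depended on the scaling. Under quantile normalization, scaling by library size alone and voom, the knockout average was at -0.36, -0.34 and -0.36 log2. KO1 was at -0.22, -0.20 and -0.21 log2 in the same order, and each of these differences was still called. The opposite-strand gene SEC14L5 overlaps PPL.

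The ratio of the pair lay on opposite sides of 1 in WT and knockout libraries. EVPL was 1.17 and 1.21 times PPL in the WT libraries, 0.459 and 0.434 times in KO1 and 0.690 and 0.629 times in KO2, as ratios of FPKM. WT libraries thus held more EVPL than PPL per length and all 4 knockout libraries less. These ratios do not depend on the scaling of a library, and they were not tested. Of the 5 other plakin genes, 3 were called higher and 2 lower in the knockout average (40.5% and 40.1% of all tested genes). Their median was 0.17 log2 against 0.02 over all tested genes. In KO2 alone 2 were higher and 1 was lower (39.1% and 39.8% of all tested genes), and 2 (PLEC and EPPK1) were not called. DSP, the gene of the desmosomal plakin desmoplakin, rose from 28.9 ± 0.925 FPKM to 47.8 ± 0.708 in KO1 and 49.5 ± 0.0103 in KO2. DST rose from 2.09 ± 0.0331 FPKM to 6.07 ± 0.0134 and 4.67 ± 0.112, and MACF1 fell from 10.2 ± 0.352 to 5.98 ± 0.139 and 5.65 ± 0.239. PLEC, the plectin gene, was called lower (-0.21 ± 0.05 log2, limma adjusted p = 0.00980), a call lost under quantile normalization (adjusted p = 0.955), scaling by library size alone (0.284), voom (0.0841) and a single knockout group of 4 (0.0755). EPPK1, the fifth gene and outside the naming rule, rose by 0.17 log2 in the knockout average (limma adjusted p = 0.0200) but was at 0.09 log2 in KO2 (adjusted p = 0.189). Whether EPPK1 was called in KO2 depended on the scaling. Quantile normalization (0.195 log2, limma adjusted p = 0.0159), scaling by library size alone (0.24 log2, 0.00823) and voom (0.26 log2, 4.07e-05) called it higher there.

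CNFN (ENSG00000105427, chromosome 19, 42387019 to 42390287, minus strand) encodes cornifelin, a small protein of the envelope. WT libraries read 7.45 and 7.04 FPKM, KO1 libraries 1.71 and 1.17, and KO2 libraries 1.78 and 2.32. All knockout libraries were below WT, with 16 to 26 reads each against 97 and 78. The fall was 4.16-fold (-1.60 ± 0.12 log2, limma adjusted p = 1.10e-04), and KO1 and KO2 were not called different (0.33 ± 0.14 log2, limma adjusted p = 0.157).

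TGM1 (ENSG00000092295, chromosome 14, 24249114 to 24264432, minus strand) encodes the membrane-bound transglutaminase of keratinocytes, which cross-links involucrin and other precursors. WT libraries read 1.77 and 1.79 FPKM, KO1 libraries 3.56 and 3.92, and KO2 libraries 1.84 and 1.72. Both KO1 libraries were above the other 4, and the WT and KO2 ranges overlapped. In KO1 TGM1 rose 2.10-fold (0.77 ± 0.07 log2, limma adjusted p = 2.18e-04). KO2 differed from WT by 0.00 ± 0.07 log2 (limma adjusted p = 0.981), which was no call. The difference between KO2 and KO1 was itself called (-0.77 ± 0.07 log2, limma adjusted p = 0.00218), where 15% of tested genes were called lower. The call for its knockout average (0.38 ± 0.06 log2, limma adjusted p = 0.00186) had its counterpart in KO1 alone and was lost with KO1 and KO2 taken as a single group of 4 (adjusted p = 0.267).

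**Figure D3:**
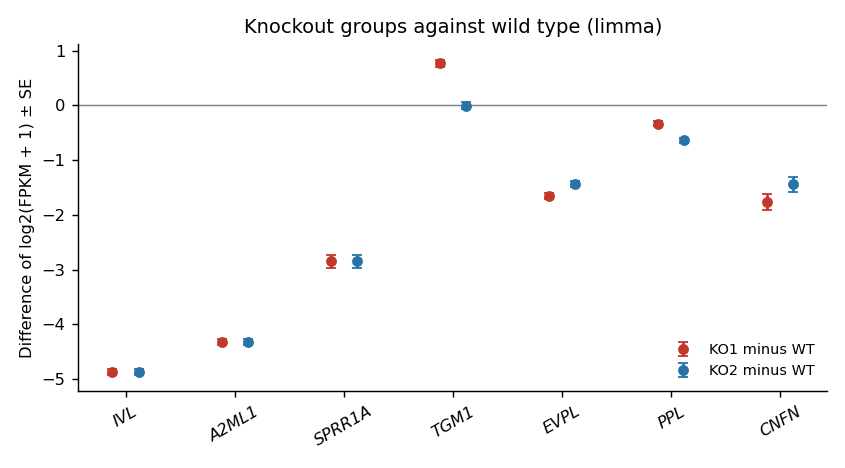
Difference of log2(FPKM + 1) from WT for the 7 tested genes in KO1 (red) and KO2 (blue), with bars for the SE of the limma fit. Both groups lie below 0 for every gene but TGM1, which is at 0.77 in KO1 and 0.00 in KO2; IVL, A2ML1 and SPRR1A are equal in both because their knockout values are all 0.

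TP63 (ENSG00000073282, chromosome 3, 189631416 to 189897279, plus strand), the gene of p63, was close to unread. WT libraries read 0.0311 and 0.0365 FPKM from 5 reads each. KO1 libraries read 0.150 and 0.171 from 26 and 29 reads, and KO2 libraries 0.253 and 0.267 from 37 reads each. The 3 groups did not overlap, with WT lowest and KO2 highest. The knockout libraries held 129 reads against 10 in WT, a rate ratio of 6.12 (exact 95% interval 3.22 to 13.1, counting error only). In the fit without a filter the knockout average was called higher (0.23 ± 0.03 log2, limma adjusted p = 0.00379). KO1 was higher than WT by 0.17 log2 (limma adjusted p = 0.0194; 19.9% of genes in this fit were called higher) and KO2 by 0.29 log2 (adjusted p = 0.00301; 20.3%). KO2 against KO1 was not called (0.12 ± 0.04 log2, limma adjusted p = 0.145; 3.84%). Gene-level reads do not tell the TP63 isoforms apart, and an antisense gene overlaps it.

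In WT the order of levels per length was EVPL (31.2 ± 1.97 FPKM), IVL (28.3 ± 1.18), PPL (26.2 ± 0.994), A2ML1 (19.0 ± 0.211), CNFN (7.25 ± 0.288), SPRR1A (6.24 ± 1.12), TGM1 (1.78 ± 0.0140), SPRR3 (0.613 ± 0.0945), SPRR1B (0.518 ± 0.112) and TP63 (0.0338 ± 0.00386). The libraries of neighbouring genes in this order did not overlap except for SPRR3 and SPRR1B. For EVPL and IVL, IVL and PPL, and CNFN and SPRR1A, the gap between the ranges was smaller than the larger SD of the pair. In KO1 the order was PPL, EVPL, TGM1, CNFN and TP63, and in KO2 PPL came first, EVPL second and TP63 last, with TGM1 and CNFN overlapping.

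KO2 and KO1, the comparison that does not use the WT libraries, differed in 3 of the 7 tested genes, against 26.2% of all tested genes. IVL, A2ML1 and SPRR1A were at 0 in both groups and could not differ. The 3 calls thus came from EVPL, PPL, CNFN and TGM1 alone. TGM1 and PPL were lower in KO2 and EVPL was higher. PPL was at -0.31 ± 0.04 log2 (limma adjusted p = 0.00787), where the adjusted p became 0.0567 without KO1 replicate 1 and 0.0521 without KO1 replicate 2. EVPL was at 0.22 ± 0.06 log2 (adjusted p = 0.0446), a call lost without any 1 of the 6 libraries (adjusted p of 0.0527 to 0.184).

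Lists of related squamous genes showed what else of the programme was present. They were chosen with earlier results of these data known, and their counts describe the lists. Of 23 other cornified envelope precursors, 8 had 0 reads in all libraries and 3 were tested. Of these, 2 rose and 1 fell (40.5% and 40.1% of all tested genes). SCEL, the gene of the precursor sciellin, fell from 5.27 ± 0.222 FPKM in WT (883 reads). The KO1 libraries held 1 read and the KO2 libraries 0. SCEL entered through WT alone, so its direction was set by the filter. PI3, the gene of the elastase inhibitor elafin that is cross-linked into the envelope, rose from 5.40 ± 0.427 FPKM to 23.9 ± 1.45 in KO1 and, less, to 8.52 ± 1.29 in KO2, a call lost with a single knockout group of 4 (limma adjusted p = 0.0658). ECM1, an extracellular matrix gene, rose 1.61-fold from 5.13 ± 0.280 FPKM. LORICRIN had 0 reads and FLG, the filaggrin gene, stayed below 1 FPKM in every library.

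Of 12 cross-linking and lipid envelope enzymes 4 were tested, with 3 lower and 1 higher (40.1% and 40.5% of all tested genes). SULT2B1 and ABCA12 entered through WT alone, so their direction was set by the filter. SULT2B1, a cholesterol sulfotransferase gene, fell 68.1-fold from 33.5 ± 1.02 FPKM. ABCA12, a lipid transporter gene of lamellar granules, fell 11.8-fold from 2.53 ± 0.0258. TGM2, the tissue transglutaminase gene, fell 2.74-fold from 8.98 ± 0.124 FPKM. ALOX12, a lipoxygenase gene, rose 2.52-fold from 0.746 ± 0.00400. It was below 1 FPKM in WT and entered through the knockouts alone, so its direction was also set by the filter. TGM3 and TGM5, the other epidermal transglutaminase genes listed, did not reach 1 FPKM.

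Of 19 squamous transcription factors 16 were tested, and 12 were lower, 2 higher and 2 not called in the knockout average (40.1% lower and 40.5% higher over all tested genes). Of the 16, 7 entered the test through WT alone and had to be lower. KO1 gave 12 lower and 4 higher (38.6% and 39.3% of all tested genes), KO2 13 lower and 2 higher (39.8% and 39.1%). GRHL2, a Grainyhead factor of epithelia, fell from 15.1 ± 0.349 FPKM (3663 reads) to 6 and 1 reads in the KO1 libraries and 1 and 2 in the KO2 libraries. EHF, an epithelial ETS factor, fell 53.4-fold from 40.2 ± 0.918 FPKM. PRDM1, the gene of the repressor BLIMP1, rose 6.66-fold from 0.799 ± 0.0137 FPKM, and DLX3, named after its value was seen, was the other gene called higher. PRDM1 and DLX3 were below 1 FPKM in WT, entered the test through the knockouts alone and had to be higher. KLF4 and NOTCH1, the pair not called in the knockout average and outside the naming rule, were at 12.3 ± 0.248 and 6.64 ± 0.607 FPKM in WT. KLF4 was at 14.9 ± 0.341 in KO1 and 10.1 ± 0.975 in KO2, and NOTCH1 at 9.44 ± 0.410 and 5.83 ± 0.267. The test called KLF4 higher in KO1 by 0.26 log2 (limma adjusted p = 0.0141). In KO2 it called KLF4 lower, at -0.26 log2 (limma adjusted p = 0.0153), a call lost under quantile normalization (0.0777), scaling by library size alone (0.196) and voom (0.133). For NOTCH1 the KO1 difference of 0.45 log2 was called (limma adjusted p = 0.00238) but the KO2 difference of -0.16 log2 was not (0.0911). Voom called both higher in the knockout average (adjusted p = 0.0249 and 5.15e-05), and scaling by library size alone called NOTCH1 higher (0.00843).

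Of 14 basal epithelial genes associated with p63, 12 were tested, 5 of them through WT alone, and 10 were lower and 2 higher (40.1% and 40.5% of all tested genes). In KO2 10 were lower and 1 higher (39.8% and 39.1% of all tested genes), and 1 was not called. DSG3, a desmosomal cadherin gene, fell from 30.3 ± 0.503 FPKM to 0 reads, at least 1166-fold. CDH3, the P-cadherin gene, fell 180-fold from 30.6 ± 1.17, KRT15, a basal keratin gene, 115-fold from 8.64 ± 0.0451, and the integrin gene ITGA6 3.06-fold from 48.1 ± 0.747. JAG2 and TRIM29, named after their values were seen, were the 2 higher genes (0.36 and 0.12 log2). TRIM29 was not called in KO2 (-0.06 log2, limma adjusted p = 0.162), where scaling by library size alone (0.09 log2, adjusted p = 0.0467) and voom (0.10 log2, 0.0216) called it higher. TP63 itself had 10 reads in these WT libraries.

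Of 9 squamous protease inhibitors 3 were tested, 2 lower and 1 higher (40.1% and 40.5% of all tested genes). SPINK5, the inhibitor of epidermal kallikreins, rose from 0.0211 and 0.0870 FPKM in the WT libraries (2 and 7 reads) to 14.3 ± 0.326 in KO1 and 12.9 ± 0.163 in KO2. It entered the test through the knockouts alone and had to be higher. SERPINB1 fell from 67.6 ± 0.652 FPKM to 41.2 ± 0.654 and 28.0 ± 0.376. CSTB, the cystatin B gene, fell from 34.1 ± 1.68 FPKM to 27.7 ± 0.782 and 22.1 ± 1.16.

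**Figure D4:**
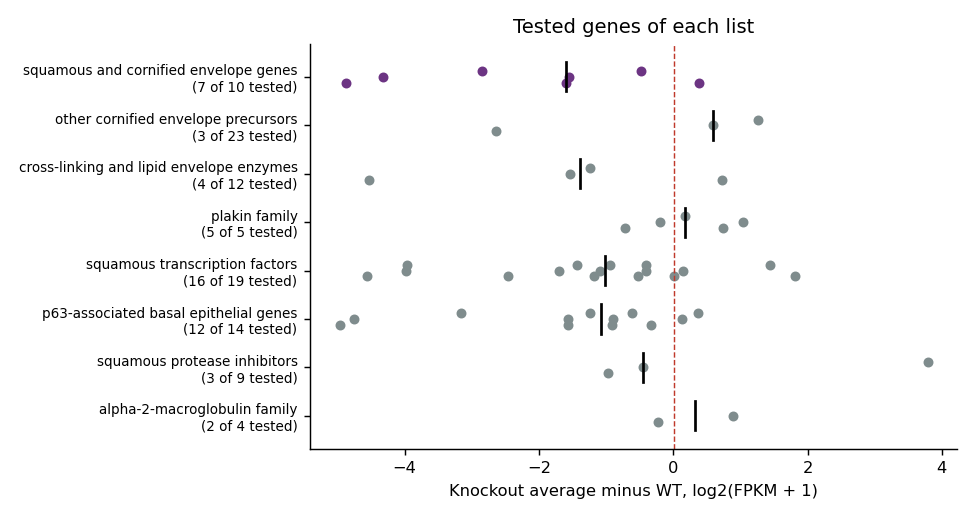
Knockout average minus WT on the log2(FPKM + 1) scale for the tested genes of each list (points; black bar the list median; dashed line the median of all tested genes, 0.02). The 7 tested genes of the squamous and cornified envelope list (purple) run from -4.87 for IVL to 0.38 for TGM1, and every list holds genes on both sides of 0. The medians include genes that entered through WT alone or through knockout libraries alone.

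The genes whose levels across the 6 libraries were most like those of IVL, by Euclidean distance of log2(FPKM + 1) among tested protein-coding genes, were KRT4 (distance 0.0312), SYK (0.0756) and SYT8 (0.116). KRT4, a keratin of non-cornified squamous epithelium, was at 27.1 and 28.7 FPKM in WT and 0 reads in the knockouts. Nearest to A2ML1 were MAGED1 (0.0460), SEL1L3 (0.0642) and FGF20 (0.0767), each with 0 to 3 reads in the 4 knockout libraries. For TP63 the search took in only genes that reach 1 FPKM, above any TP63 value, so its nearest genes (PCK1 at 1.04, NPFFR2 at 1.10 and CCDC54 at 1.16) do not describe its pattern. The searches for IVL and A2ML1 describe likeness over 6 libraries that fall into WT and knockout and share that split.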

How the data were processed

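The data were 6 RNA-seq libraries of NCI-N87, 2 each for WT, KO1 and KO2. The authors deposited 1 FPKM table per library with 58735 gene IDs. Per the submitters' processing notes, the tools were featureCounts 1.5.0-p3 and HISAT2 2.0.5 and the build hg38. The sources used here give neither the part of each tool nor strand setting or annotation. All IDs matched GENCODE release 29, which gave names, coordinates and exon lengths; promoter windows came from RefSeq (GRCh38.p14). Multiplying FPKM by exon length gave whole reads for 100% of values (within 0.1 of a read). One read in 1 kb equals 0.0429 to 0.0544 FPKM.

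The fit used limma 3.58.1 (R 4.3.3) with a mean for each group and a trended variance on log2(FPKM + 1) of the 6 libraries. Genes with 1 FPKM in at least 2 libraries were kept. The files held FPKM, so the count test that the design named for counts was not used. The script was tested on simulated data. Folds are ratios of mean FPKM, with a floor of 3 reads per library for a group at 0.

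The 10 genes, the related lists and the tests were chosen with earlier results of these data known. All 10 genes, up to 4 genes per related list with the smallest adjusted p, and the nearest genes by level are named; genes outside this rule are marked, and some genes are not reported here. Alternatives were a pseudocount of 0.1, no filter, quantile normalization, scaling by library size alone, voom on recovered reads, a replicate block, one knockout group of 4 and leaving out each library.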

Additional observations from a re-analysis of the deposited data

Results flagged for a closer look

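Of the list, the related genes, the markers and KRT17 as named in the text (S100 genes, genes near by position and genes of like level not included), 20 differed between the KO2 and KO1 effects by the test of KO2 minus KO1 (limma, Benjamini-Hochberg adjusted over all tested genes), where 26.2% of tested genes were called. TGM1 was at -0.77 ± 0.07 log2 (adjusted p = 0.00218), PPL at -0.31 ± 0.04 (adjusted p = 0.00787) and EVPL at 0.22 ± 0.06 (adjusted p = 0.0446). PI3 was at -1.39 log2, from 23.9 FPKM in KO1 to 8.52 in KO2. SERPINB1 was at -0.54, ITGA6 at -0.43, TGM2 at -0.39, DST at -0.32, CSTB at -0.32, EHF at -0.31 and CD109 at -0.23 log2. Among genes outside the list and the naming rule, KRT17 was at 1.83, DLX3 at 0.71, DCN at 0.53, CDH1 at 0.37, NOTCH1 at -0.61, KLF4 at -0.52, TRIM29 at -0.38, KRT18 at -0.29 and KRT8 at -0.24 log2. Of the 20, 5 (EVPL, KRT17, DLX3, DCN and CDH1) were higher in KO2. The pool's size is not given and some of its genes were named after their values were seen, so the 20 cannot be set against the 26.2%.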

How the results depend on the processing

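For the 7 tested genes of the list in 4 comparisons and 24 related genes in the knockout average, 634 recomputed differences kept their direction and their side of the threshold, 17 lost their call and 4 changed sign. The 4 were TGM1 in KO2 against WT, which was not called in any setting and was at 0.10 log2 when scaled by library size alone, 0.16 with voom, -0.0351 to 0.0312 when 1 library was left out (highest without KO2 replicate 2, and 0.00317 without WT replicate 2). Library-size scaling and voom moved the median of all tested genes to 0.14 and 0.17 log2. Without a filter, which lets in TP63, 2 genes of the list were called higher in the knockout average, 2 in KO1 and 1 in KO2, and 0 were called higher in KO2 against KO1. With one knockout group of 4, 0 were called higher in the knockout average. Leaving out 1 library at a time, genes of the list called lower in KO2 against KO1 were 1 to 2 and those called higher 0 each time. Over all genes, KO2 against KO1 gave 2403 lower and 1800 higher calls, against 1016 to 1863 lower and 833 to 1502 higher when 1 library was left out (fewest without KO1 replicate 1), and 2734 higher with voom. The replicate numbers are labels: replicate 2 minus 1 correlated between groups at 0.0191 (WT and KO1), -0.00406 (WT and KO2) and -0.0383 (KO1 and KO2) over genes. With the number as a replicate block, 0 genes of the list were called higher in KO2 against KO1, since EVPL had an adjusted p of 0.0830. At these depths SPRR1B, SPRR3 and TP63 rest on 10 to 35 reads in WT.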

Other observations

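The nearest tested protein-coding genes beside several genes of the list were also read, as a description of position. A2ML1, at 0 reads in the knockouts, lay 39.4 kb from RIMKLB, which rose from 0.134 to 7.90 FPKM (2.94 log2, limma adjusted p = 6.79e-07), and 26.9 kb from PHC1, which fell from 5.68 to 1.73 FPKM (-1.30 log2, adjusted p = 8.69e-05). TP63 lay 59.5 kb from P3H2, a collagen-modifying enzyme gene, which rose from 0.362 ± 0.0792 to 22.6 ± 0.784 FPKM (4.11 log2, limma adjusted p = 2.17e-07), and 741 kb from LPP, which fell by 1.12 log2. Both neighbours of TGM1, TINF2 and RABGGTA, were higher in the knockout average (0.82 and 0.60 log2). SRP68, beside EVPL, was not called (0.02 log2, limma adjusted p = 0.413). These genes were named for their position. RIMKLB and P3H2 were below 1 FPKM in WT and entered the test through the knockouts alone, so they had to be higher.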
